A study of Homo sapiens with 8 samples.

Results

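RNA levels of 9 genes of the HLA class I antigen presentation pathway were read from the gene counts of G401, an established cell line of kidney rhabdoid tumor origin. It has lost SMARCB1, which encodes one of the core proteins of the mSWI/SNF chromatin remodelling complexes. The 9 genes were taken as a list by symbol and were found by gene identifier in the GENCODE annotation. They are the heavy chain genes HLA-B, HLA-C and HLA-E, the light chain gene B2M, the peptide supply and loading genes TAP1, TAP2, TAPBP and ERAP1, and the regulator NLRC5. All 9 were among the 69215 genes of the deposited tables, and 9 of 9 passed the filter on low counts, which left 15931 genes to test.

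Every group was G401 with a Tet-On cassette, in which doxycycline (Dox) switches on the inserted gene, and so all groups share the loss of the cells' own SMARCB1. SMARCB1 Dox was the SMARCB1-inducible line with 0.1 µg/ml Dox for 12 h, and SMARCB1 DMSO was that line with the solvent dimethylsulfoxide (DMSO) for the same time. GFP Dox and GFP DMSO were the GFP-inducible line under the same treatments, which shows the effect of the drug and of an inserted gene other than SMARCB1. Each of the 4 groups had 2 libraries. The study's methods state that several plates per condition were harvested and pooled, and that the experiments were done in duplicate. Nothing in the sources used here says that the replicates came from independently made lines, so the p-values measure the spread between these libraries, which may be technical. The libraries are bulk RNA, in which fewer cells expressing a gene and less RNA per cell cannot be told apart.

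Class I molecules carry peptides from inside the cell to its surface, where T cells and natural killer cells read them. Peptides made by the proteasome are pumped into the endoplasmic reticulum by the TAP1 and TAP2 transporter, are trimmed there by the aminopeptidase ERAP1, and are loaded with the help of tapasin, the product of TAPBP, onto a heavy chain paired with B2M. Interferon-gamma raises most genes of the pathway, and NLRC5 is the transactivator that works with the RFX proteins at class I promoters.

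The upstream sequences of 4 members are shown because their letters hold the elements through which interferon regulatory factors and NF-kappaB are known to reach this pathway. They are the 250 bases before the first RefSeq start site on GRCh38.p14, read 5′ to 3′ on the gene's own strand, at chr6:31357180-31357429 (minus strand) for HLA-B, chr6:31272093-31272342 (minus strand) for HLA-C, chr15:44711267-44711516 (plus strand) for B2M and chr6:32853705-32853954 (minus strand) for TAP1. Capitals mark matches on either strand to AANNGAAA, the core of an interferon regulatory factor element, and to the kappaB consensus. Both kinds of match also occur before the first start site of TAPBP, which is not shown.
HLA-B: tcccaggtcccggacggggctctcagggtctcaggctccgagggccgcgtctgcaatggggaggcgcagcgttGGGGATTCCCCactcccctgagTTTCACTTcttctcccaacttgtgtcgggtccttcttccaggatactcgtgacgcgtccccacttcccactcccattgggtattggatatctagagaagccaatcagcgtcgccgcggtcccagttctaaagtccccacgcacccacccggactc
HLA-C: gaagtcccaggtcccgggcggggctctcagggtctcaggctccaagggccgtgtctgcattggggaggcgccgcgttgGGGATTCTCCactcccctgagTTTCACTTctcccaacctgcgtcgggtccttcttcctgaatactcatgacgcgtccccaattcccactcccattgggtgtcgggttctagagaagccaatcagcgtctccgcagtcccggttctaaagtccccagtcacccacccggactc
B2M: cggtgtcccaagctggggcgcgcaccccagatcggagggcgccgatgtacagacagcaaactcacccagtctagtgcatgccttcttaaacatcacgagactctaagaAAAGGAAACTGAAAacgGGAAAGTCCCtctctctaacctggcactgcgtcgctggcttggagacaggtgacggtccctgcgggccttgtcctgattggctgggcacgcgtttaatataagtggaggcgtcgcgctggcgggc
TAP1: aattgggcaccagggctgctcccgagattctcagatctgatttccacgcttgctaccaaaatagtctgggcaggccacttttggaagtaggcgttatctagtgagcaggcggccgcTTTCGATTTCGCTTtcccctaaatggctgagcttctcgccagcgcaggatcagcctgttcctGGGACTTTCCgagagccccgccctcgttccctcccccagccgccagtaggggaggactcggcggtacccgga

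RefSeq promoter sequence was at hand for 7 of the 9 members, all but HLA-E and NLRC5. Counted at the first start site of each, AANNGAAA was found in 6 of these 7, all but ERAP1, whose second start site has 2 matches, and in 20.3% of all 35116 promoters of the same length, and the kappaB consensus in 6 of 7 and in 5.21%. TGACG, the core of the cyclic AMP response element, was found in 4 of 7 against 21.2%, and CCAAT in 5 of 7 against 32%. In HLA-B the kappaB letters lay at positions -177 to -167 and the AANNGAAA match at -155 to -148, counted back from the start site. In HLA-C the same order was found at -172 to -163 and -151 to -144. In B2M a pair of overlapping AANNGAAA matches came first, at -142 to -129, and the kappaB match followed at -125 to -116, while in TAP1 the overlapping pair lay at -134 to -121 and the kappaB match at -72 to -63. These matches describe the letters and are not evidence of binding in G401.

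The libraries held 29632090 to 37597477 counts assigned to genes, of which mitochondrial genes took 18.9% to 27.9%, the highest share being in SMARCB1 DMSO replicate 1. SMARCB1 itself had 30474 and 29383 counts in SMARCB1 Dox, 10 and 21 counts in SMARCB1 DMSO, and 0 counts in all GFP libraries, so the labels held and the SMARCB1 line carried a trace of the transcript without Dox. The tumor line markers VIM, KRT8 and KRT18 had between 7408 and 45130 counts in every library. Of the 12 markers of immune and professional antigen-presenting cells, all but CD74 stayed at or under 6 counts in every library. These 11 summed to 0.0281 to 0.2 CPM (gene counts scaled to library size) in SMARCB1 Dox, 0 to 0.334 in SMARCB1 DMSO, 0.0546 to 0.227 in GFP Dox and 0.0888 to 0.182 in GFP DMSO. CD3E and MS4A1 were at 0 throughout, and PTPRC, the pan-leukocyte marker, and HLA-DRA, a class II chain, did not exceed 2. CD74, the class II invariant chain, was present at 43.5 to 51.2 CPM as group means.

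The light chain and the heavy chains stood far apart in counted level. Set on a common scale of CPM per kilobase of canonical transcript, B2M averaged 229 ± 20.6 (SD, n = 2) in GFP DMSO, and HLA-E averaged 4.29 ± 0.135, HLA-C 0.891 ± 0.0424 and HLA-B 0.764 ± 0.0457 in the same libraries. On this scale B2M was thus 53.5 ± 6.49 times the level of HLA-E, 257 ± 10.9 times that of HLA-C and 301 ± 44.9 times that of HLA-B. In GFP Dox these ratios were 60.3 ± 9.79, 238 ± 24.4 and 290 ± 105, in SMARCB1 DMSO they were 40.5 ± 4.25, 310 ± 27.2 and 519 ± 102, and in SMARCB1 Dox they were 45 ± 4.01, 281 ± 50.4 and 376 ± 139. The ratios depend on the length used. Per kilobase of all annotated exons, GFP DMSO means were 69.2 for B2M, 3.74 for HLA-E, 0.548 for HLA-C and 0.254 for HLA-B. By that length B2M lay closer to each heavy chain. The ratios also depend on which reads were counted. Reads that fit several genes were left unassigned, and how far this lowered the heavy chain values was not tested. B2M ranked first of the 9 in every library. The classical heavy chains HLA-B and HLA-C, which present most peptides to T cells, were below the non-classical HLA-E, a ligand of natural killer cell receptors, in all 8 libraries.

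TAP1, ERAP1 and TAPBP formed the next tier, at 9.83 to 19 CPM per kilobase as group means. TAP1 ranked second in both GFP groups, at 19 ± 0.0495 in GFP DMSO and 19 ± 0.297 in GFP Dox, and ERAP1 ranked second in both SMARCB1 groups, at 14.9 ± 1.91 in SMARCB1 DMSO and 15.5 ± 0.771 in SMARCB1 Dox. In SMARCB1 DMSO the libraries of ERAP1 and TAP1 overlapped on this scale, as did those of TAP1 and TAPBP in SMARCB1 Dox. TAP2, the partner of TAP1 in the transporter, was at 0.646 to 0.736, so that the ratio of TAP1 to TAP2 per length was 25.9 ± 0.659 in GFP DMSO, 29.6 ± 3.77 in GFP Dox, 19.6 ± 0.744 in SMARCB1 DMSO and 16.4 ± 0.752 in SMARCB1 Dox. TAP2 did not separate from HLA-B in any group, and HLA-B did not separate from HLA-C in either Dox group. NLRC5 ranked last in every group on this scale, at 0.154 ± 0.0601 in GFP DMSO and 0.496 ± 0.124 in SMARCB1 Dox. Per kilobase of all annotated exons its SMARCB1 Dox mean was 0.272, close to 0.284 for HLA-B.

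**Figure D1:**
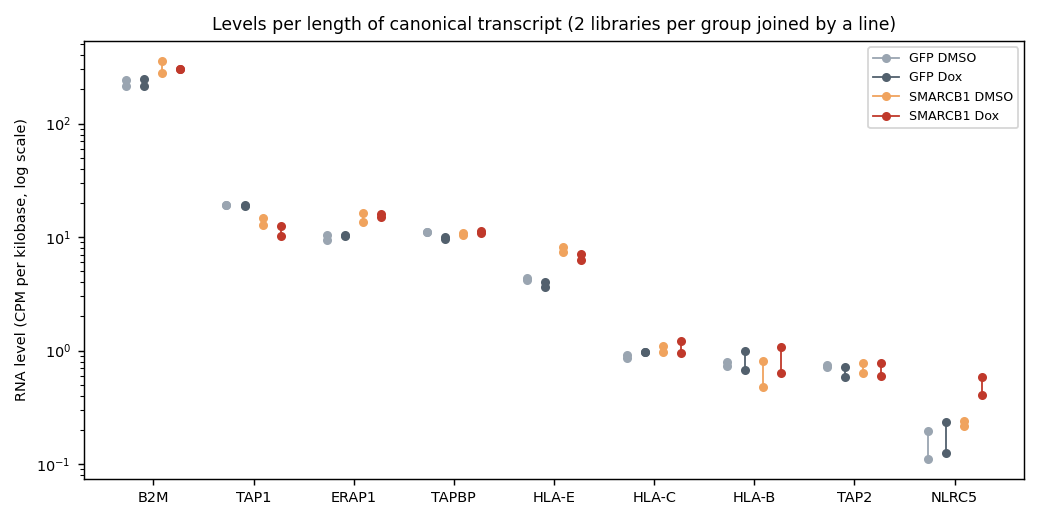
RNA level in CPM per kilobase of canonical transcript (log axis) for the 9 class I genes, each point 1 library and each line joining the 2 libraries of a group. B2M lies near 229 to 319 as group means, TAP1, ERAP1 and TAPBP between 9.83 and 19, and NLRC5 lowest, between 0.154 and 0.496.

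Counting limits the heavy chain and transporter values. HLA-B (chr6:31353872-31367067, minus strand) shares 23.7% of its canonical exon bases with exons of other genes, and 30.5% of the distinct stretches of 50 bases in its transcripts occur in transcripts of another gene. For TAP2 (chr6:32821833-32838739, minus strand) these shares were 35.8% and 18.5%, because a read-through gene covers it on the same strand. Reads that fit several genes were left unassigned by the authors' counting, so the HLA-B and TAP2 levels are low estimates to an unknown degree, and how well the alleles of G401 map to the reference was not tested. HLA-C (chr6:31268749-31272130, minus strand) and HLA-E (chr6:30489509-30494194, plus strand) shared 5.46% and 5.19% of these stretches and no exon bases. B2M (chr15:44711358-44718851, plus strand) and NLRC5 (chr16:56989485-57083531, plus strand) shared none. These shares were counted within GENCODE v44 alone. A further 6590 identifiers of the deposited tables, of which 13 had any count, were not matched to it. Sequence shared with those was not measured, so the shares are lower limits for HLA-C, HLA-E and every other member. TAP1 (chr6:32845209-32853816, minus strand), TAPBP (chr6:33299694-33314284, minus strand) and ERAP1 (chr5:96760810-96808100, minus strand) have other genes' exons over 21.5%, 40.5% and 13.2% of their canonical exon bases, all on the opposite strand, where reads cannot be told apart unless strand was used in counting.

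The first comparison asks how 12 h of SMARCB1 re-expression moved the pathway. NLRC5 was the one member that rose, and it roughly doubled its RNA. None of the heavy chains, B2M or the peptide supply genes passed the test. NLRC5 stood at 3.96 and 2.77 CPM in SMARCB1 Dox against 1.61 and 1.49 in SMARCB1 DMSO, from 141 and 97 counts against 47 and 49. Both Dox libraries lay above both DMSO libraries, and the GFP line held 1.59 and 0.847 with Dox and 1.33 and 0.755 without. The log2 fold change was 1.12 ± 0.306 (SE), a 2.18-fold rise with a 95% interval of 1.44 to 3.3 (edgeR quasi-likelihood test, Benjamini-Hochberg adjusted p = 0.016). The call did not survive the loss of SMARCB1 Dox replicate 1 (0.84, adjusted p = 0.211) or of SMARCB1 DMSO replicate 2 (1.06, adjusted p = 0.0678), and with each library left out in turn the edgeR adjusted p ran from 0.00819 to 0.211. With 1 of 9 members called, the share is set against 14% of all 15931 genes called in this comparison, with 8.33% higher and 5.69% lower. At an unadjusted p under 0.05 by edgeR, 2 of 9 members passed, against 26% of all genes. Scaled by library totals in place of TMM, 1986 of 2483 calls over all genes were higher, against 1327 of 2234 here.

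**Figure D2:**
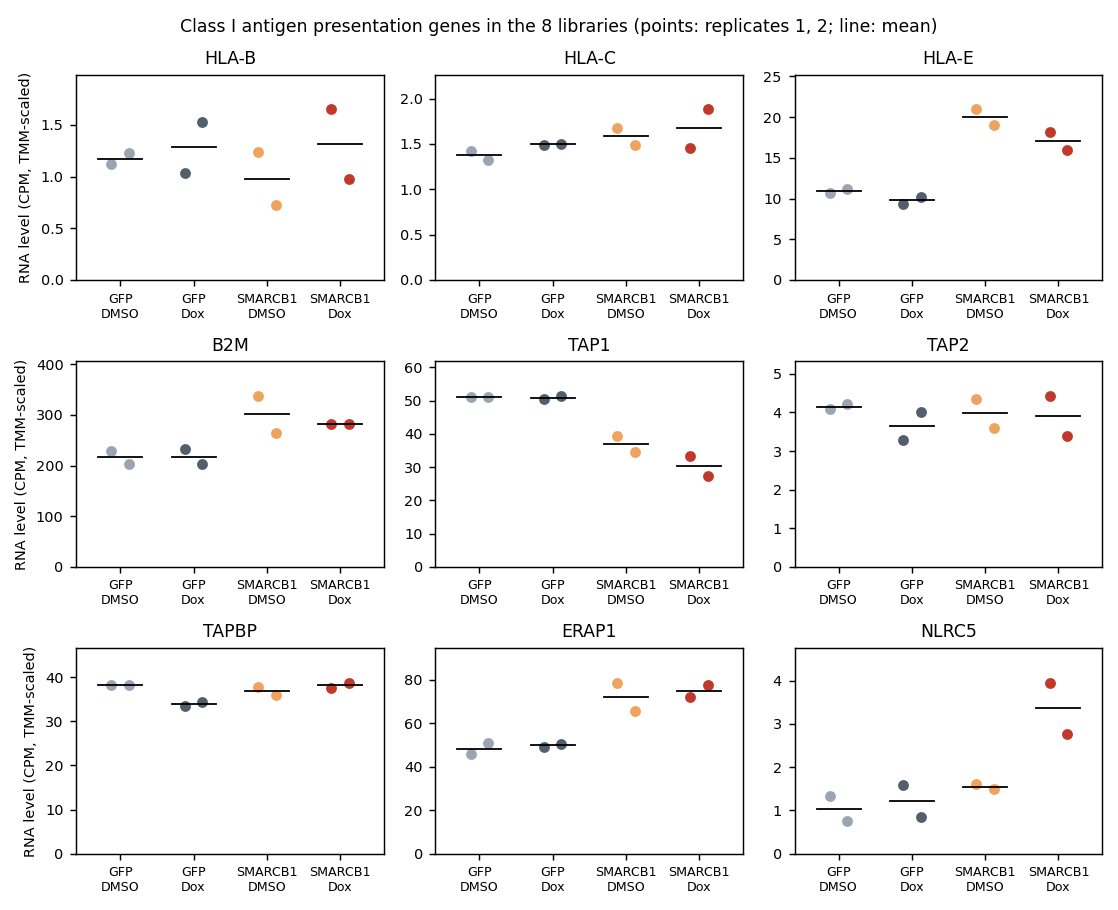
RNA level (CPM, linear axis from 0) of the 9 class I genes in the 8 libraries, with points for replicates 1 and 2 and a line at the group mean. NLRC5 is highest in SMARCB1 Dox (3.96 and 2.77), while HLA-E, B2M and ERAP1 are higher, and TAP1 lower, in both SMARCB1 groups than in both GFP groups.

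TAP1 came nearest to a call among the others, in the lower direction. It stood at 33.5 and 27.4 CPM in SMARCB1 Dox and at 39.5 and 34.5 in SMARCB1 DMSO. The groups did not overlap, with a log2 fold change of -0.28 ± 0.0999 and an edgeR adjusted p of 0.0662. It passed when SMARCB1 Dox replicate 1 was left out (-0.43, adjusted p = 0.0194), when SMARCB1 DMSO replicate 2 was left out (-0.38, adjusted p = 0.0308), and with the replicate number as a block (-0.28, adjusted p = 0.0168). It shrank without SMARCB1 Dox replicate 2 (-0.14, edgeR adjusted p = 0.458) and without SMARCB1 DMSO replicate 1 (-0.18, edgeR adjusted p = 0.406). HLA-E showed the same order of groups, 18.1 and 16 CPM against 21 and 19, with a log2 fold change of -0.23 ± 0.116 (edgeR adjusted p = 0.216).

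The classical heavy chains were measured on few reads. HLA-B had 1.66 and 0.972 CPM in SMARCB1 Dox and 1.23 and 0.728 in SMARCB1 DMSO, from 24 to 59 counts a library. HLA-C had 1.46 and 1.89 against 1.68 and 1.49, from 49 to 66 counts. The groups overlapped for both genes, and the log2 fold changes were 0.43 ± 0.363 and 0.082 ± 0.278. HLA-B ranged from 0.000272 without SMARCB1 Dox replicate 1 to 0.85 without SMARCB1 DMSO replicate 1, and was 0.77 without SMARCB1 Dox replicate 2 and 0.0917 without SMARCB1 DMSO replicate 2. Their 95% intervals, -0.28 to 1.15 and -0.46 to 0.63, leave room for a change of the size seen for NLRC5 in the former and not in the latter.

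For the well-covered members the intervals were narrow. B2M stood at 283 and 283 CPM in SMARCB1 Dox and at 338 and 264 in SMARCB1 DMSO, the higher of which was the library with the highest mitochondrial share, and its log2 fold change was -0.090 with an interval of -0.29 to 0.11. ERAP1 was at 72.2 and 77.4 against 78.8 and 65.7 CPM, and its interval ran from -0.13 to 0.23. TAPBP, at 37.6 and 38.8 against 37.8 and 35.9 CPM, had an interval of -0.12 to 0.22. TAP2, at 4.44 and 3.4 against 4.36 and 3.61, had a wider one, from -0.40 to 0.37. Groups overlapped for these 4 genes. Over the 9 members 1 was higher without overlap, 2 were lower and 6 overlapped, where 51.2% of all genes did not overlap. The median log2 fold change of the members was 0.052, and that of all genes was -0.004.

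The control comparison, GFP Dox against GFP DMSO, gave no call for any of the 9 members, as for 0% of all genes by edgeR and by DESeq2. At an unadjusted p under 0.05 edgeR also counted 0 of 9 members, against 266 genes or 1.67% overall. Log2 fold changes ran from -0.18 for TAP2 to 0.22 for NLRC5, and 1 member was higher and 3 were lower without overlap, where 26.8% of all genes did not overlap. B2M stood at 233 and 202 CPM with Dox and 230 and 202 without. TAP1 stood at 50.4 and 51.5 with Dox and 51.2 and 51 without, a difference smaller than the spread within SMARCB1 Dox. TAPBP had the smallest unadjusted p, with 33.5 and 34.4 CPM against 38.1 and 38.2, a log2 fold change of -0.17 ± 0.0859 and an unadjusted edgeR p of 0.0627.

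Whether the Dox effect differed between the lines was tested directly as the difference of both effects. None of the 9 members was called, where 4.71% of all genes were (3.07% higher and 1.64% lower). At an unadjusted p under 0.05 by edgeR, 0 of 9 passed, against 16.2% of all genes. DESeq2 also called 0 of 9. Library totals gave 670 of 829 higher calls over all genes, against 489 of 750. For NLRC5 the difference was 0.90 ± 0.469 on the log2 scale, with an interval of -0.015 to 1.82 (edgeR adjusted p = 0.363). Left out in turn, the libraries moved it from 0.46 without GFP DMSO replicate 1 to 1.41 without GFP Dox replicate 1, with edgeR adjusted p from 0.183 to 0.792, and it was 0.50 without GFP Dox replicate 2. The NLRC5 rise in the SMARCB1 line was therefore not shown to be separate from the effect of Dox in the GFP line. For TAP1 the difference was -0.28 ± 0.139 (edgeR adjusted p = 0.339), and for TAPBP it was 0.22 ± 0.122 (edgeR adjusted p = 0.399).

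**Figure D3:**
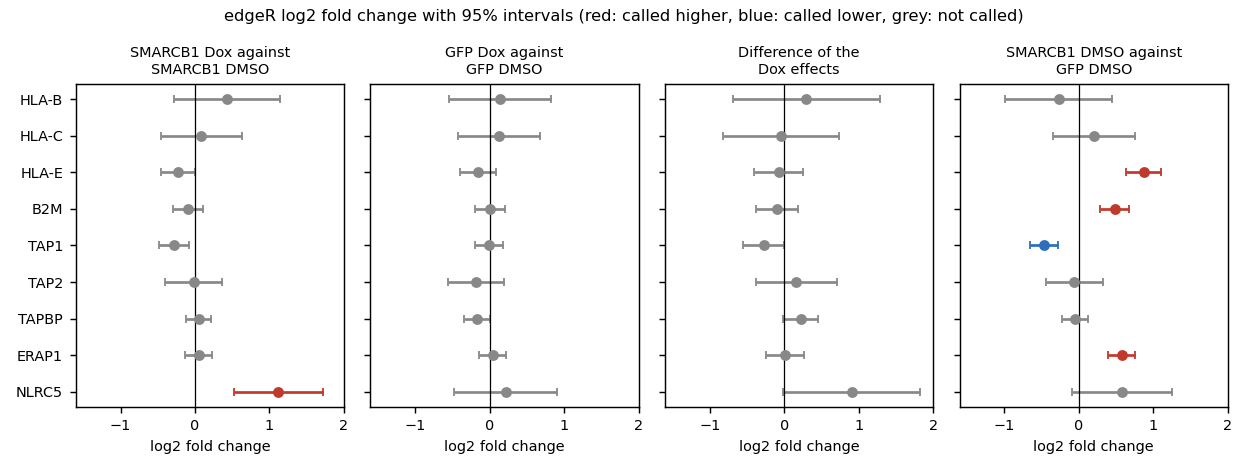
Log2 fold changes of the 9 class I genes from edgeR with 95% intervals (from the normal distribution) in the 4 comparisons, with red for genes called higher, blue for lower and grey for genes not called. NLRC5 (1.12) is the one call with SMARCB1 induction, and HLA-E, B2M, ERAP1 and TAP1 are called between the untreated lines.

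The lines also differed before any induction. In SMARCB1 DMSO against GFP DMSO, 4 of the 9 members were called, where 32% of all genes were, and the same 4 passed at an unadjusted p under 0.05, against 40.9%. HLA-E, ERAP1 and B2M were higher in the SMARCB1 line and TAP1 was lower. The background was 16.3% for higher and 15.7% for lower calls, and with library totals 1732 of 5390 calls over all genes were higher against 2600 of 5105. HLA-E stood at 21 and 19 CPM in SMARCB1 DMSO and at 10.7 and 11.2 in GFP DMSO, which is 1.83-fold (log2 0.87 ± 0.119, edgeR adjusted p = 5.27e-06). ERAP1 stood at 78.8 and 65.7 against 45.8 and 50.9, or 1.49-fold (log2 0.58 ± 0.0931, edgeR adjusted p = 4.16e-05). B2M stood at 338 and 264 against 230 and 202, or 1.39-fold (log2 0.48 ± 0.103, edgeR adjusted p = 0.000914). TAP1 stood at 39.5 and 34.5 against 51.2 and 51, a log2 fold change of -0.47 ± 0.098 (edgeR adjusted p = 0.000768). The groups did not overlap for any of these 4 genes. Without SMARCB1 DMSO replicate 1, the library with the 27.9% mitochondrial share, B2M was still called at a log2 fold change of 0.29 (edgeR adjusted p = 0.0373). All 4 calls held with each library left out in turn and under each other scaling, filter, tool and block tried, and none of the 4 exceeded a log2 fold change of 1.

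The other 5 members were not called between the untreated lines. NLRC5 was at 1.61 and 1.49 CPM in SMARCB1 DMSO against 1.33 and 0.755 in GFP DMSO, with no overlap and a log2 fold change of 0.58 ± 0.345 (edgeR adjusted p = 0.22). That NLRC5 value was 1.03 without GFP DMSO replicate 1 and 0.21 without GFP DMSO replicate 2 (edgeR adjusted p = 0.0753 and 0.771). HLA-B stood at 1.23 and 0.728 against 1.12 and 1.22, and HLA-C at 1.68 and 1.49 against 1.42 and 1.33. TAP2 and TAPBP had log2 fold changes of -0.064 and -0.051. The median over the 9 members was 0.20, and over all genes 0.015. Of the 9, 5 were higher and 2 lower without overlap, where 64.7% of all genes did not overlap and 33.1% were higher. The trace of SMARCB1 in the untreated SMARCB1 line (0.49 ± 0.208 CPM) and any other difference between the lines cannot be told apart in this comparison. It shares the SMARCB1 DMSO libraries with the induction comparison, so the values are set side by side. HLA-E was higher in the SMARCB1 line and lower, uncalled, with induction, whereas TAP1 was lower in both and called between the lines alone.

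Around the members, 25 further genes of peptide processing and class I loading were read, of which 22 could be tested. With SMARCB1 induction 1 of 22 rose, where 14% of all genes were called and 8.33% were called higher. It was ERAP2, the aminopeptidase that trims peptides beside ERAP1. ERAP2 stood at 23.9 and 21.8 CPM against 20.1 and 15.1 (log2 0.38 ± 0.125, edgeR adjusted p = 0.048). That call was lost with DESeq2 (adjusted p = 0.0664) and with 7 of the 8 libraries left out in turn, being kept only without SMARCB1 DMSO replicate 1 (0.59, adjusted p = 0.0061), and the fold change was 0.18 without SMARCB1 DMSO replicate 2 (adjusted p = 0.454). None of the 22 was called in the GFP line or for the difference of the effects by edgeR or DESeq2. Of all genes, edgeR called 0% and 4.71% there. At an unadjusted p under 0.05 the edgeR counts there were 0 and 2 of 22, against 1.67% and 16.2% of all genes.

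Between the untreated lines 8 of these 22 were called, near the 32% of all genes, with 5 higher (16.3% of all genes) and 3 lower (15.7%) in the SMARCB1 line. Higher were LNPEP, an endosomal aminopeptidase used in cross-presentation (log2 0.77), PDIA3, the disulfide isomerase of the loading complex (0.50), ERAP2 (0.49) and HSPA5, the main chaperone of the endoplasmic reticulum (0.39), all as log2 fold changes. ERAP2 and HSPA5 lost their calls without SMARCB1 DMSO replicate 1 (0.27, edgeR adjusted p = 0.179, and 0.15, edgeR adjusted p = 0.29). HSPA5 was 0.59 without SMARCB1 DMSO replicate 2 and lost its call without GFP DMSO replicate 2 (0.37, edgeR adjusted p = 0.0583). Lower were the immunoproteasome subunit PSMB9 (-0.75), the cytosolic aminopeptidase NPEPPS (-0.47) and the proteasome activator subunit PSME1 (-0.33). PSME1 lost its call without SMARCB1 DMSO replicate 1 (-0.29, edgeR adjusted p = 0.063) or GFP DMSO replicate 1 (-0.31, edgeR adjusted p = 0.0682). With 1 library left out at a time, 4 to 10 of the 22 were called.

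PSMB9 is the neighbour of TAP1, and their annotated start sites lie 488 bases apart on opposite strands. PSMB9 stood at 8.81 and 6.7 CPM in SMARCB1 DMSO and at 13.2 and 12.8 in GFP DMSO (log2 -0.75 ± 0.159, edgeR adjusted p = 0.000884). With Dox it was at 7.22 and 5.03 in the SMARCB1 line and 11.9 and 11.9 in the GFP line. Both genes of the pair were therefore lower in the SMARCB1 line than in the GFP line under either treatment, and the induction effect on PSMB9 was -0.34 ± 0.168 (edgeR adjusted p = 0.215). The immunoproteasome subunit PSMB10, which is outside the naming rule and was picked after its values were seen, had 3.12 and 2.12 CPM in SMARCB1 Dox against 1.65 and 1.52 in SMARCB1 DMSO (log2 0.73 ± 0.296, edgeR adjusted p = 0.113). The PSMB10 value was 0.42 without SMARCB1 Dox replicate 1 (edgeR adjusted p = 0.584) and 0.98 without SMARCB1 Dox replicate 2 (edgeR adjusted p = 0.0644).

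**Figure D4:**
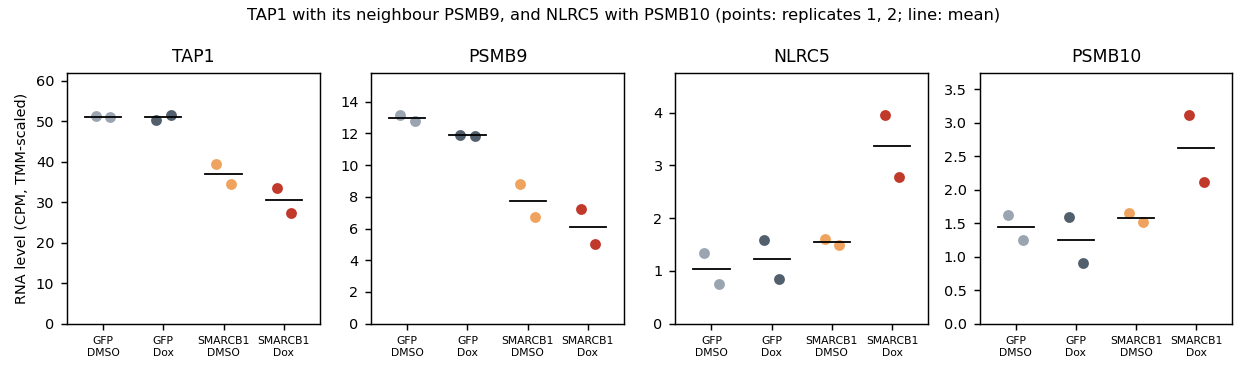
RNA level (CPM, linear axis from 0) of TAP1, its neighbour PSMB9, NLRC5 and PSMB10 in the 8 libraries, with points for replicates 1 and 2 and a line at the group mean. TAP1 and PSMB9 are lower in the 4 libraries of the SMARCB1 line, and NLRC5 and PSMB10 are highest in SMARCB1 Dox.

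Some members of the wider pathway were at or near 0 counts. HLA-F and HLA-G, non-classical heavy chains, had 0 counts in all 8 libraries, which allows up to 0.0781 to 0.103 CPM a library (3 counts, counting error only). Reads that fit several genes were left unassigned, and sequence shared with other genes was not measured for HLA-F and HLA-G. Their 0 counts therefore need not mean that the RNA was absent. PSMB8, the third immunoproteasome subunit, did not exceed 2 counts, and CIITA, the class II counterpart of NLRC5, did not exceed 5. Sequence and exons shared with other genes were not measured for PSMB8 and CIITA either, so the same limit holds for them.

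The transcription factors and interferon signalling genes that act on class I promoters made a list of 31, of which 29 could be tested. With SMARCB1 induction 4 of 29 were called, a share close to the 14% of all genes. IFNGR1, the ligand-binding chain of the interferon-gamma receptor, rose from 26.7 and 23.6 CPM to 30.6 and 35 (log2 0.38 ± 0.1, edgeR adjusted p = 0.0125), and NFKB2, the p100 subunit of NF-kappaB, rose by 0.31. RFX5, the DNA-binding partner of NLRC5, fell from 62.7 and 63.4 to 50.9 and 52 CPM (log2 -0.29 ± 0.0795, edgeR adjusted p = 0.0157), and IFNAR1, a chain of the interferon-alpha receptor, fell by 0.26 on the log2 scale. NLRC5 and RFX5, which act at the same promoters, thus changed in opposite directions in this comparison.

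These regulator calls depended on single libraries. With 1 library left out at a time, 1 or 2 of the 29 stayed called. IFNGR1 lost its call without SMARCB1 Dox replicate 2 (0.28, edgeR adjusted p = 0.13) and without SMARCB1 DMSO replicate 2 (0.30, edgeR adjusted p = 0.122). RFX5 lost it without SMARCB1 Dox replicate 1 (adjusted p = 0.0917 by edgeR), SMARCB1 DMSO replicate 1 (0.0518) or SMARCB1 DMSO replicate 2 (0.0568), and with library totals (log2 -0.20, adjusted p = 0.157). NFKB2 lost it with any of the 8 libraries left out, with edgeR adjusted p between 0.0535 and 0.151. IFNAR1 kept it only without SMARCB1 DMSO replicate 2, was at -0.14 without SMARCB1 DMSO replicate 1 and at -0.16 with library totals (edgeR adjusted p = 0.255).

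The GFP line gave 0 of 29 calls by edgeR and DESeq2, as for 0% of all genes. At an unadjusted p under 0.05 edgeR counted 1 of 29, against 1.67% of all genes. For the difference of the effects 1 of 29 regulators was called, where 4.71% of all genes were called and 3.07% were called higher. It was IRF7, a factor of the interferon response, at 2.67 ± 0.763 on the log2 scale (edgeR adjusted p = 0.0466). It rested on 24 and 36 counts in SMARCB1 Dox, 19 and 13 in SMARCB1 DMSO, 2 and 8 in GFP Dox and 19 and 23 in GFP DMSO. The low values were those of the GFP Dox libraries. DESeq2 did not call it (adjusted p = 0.0804), and it stayed called with 1 library left out only when that was SMARCB1 DMSO replicate 1.

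Between the untreated lines 8 of 29 regulators were called, a share no larger than the 32% of all genes, with 5 higher and 3 lower in the SMARCB1 line. Higher were SOCS1, which brakes interferon signalling (log2 0.80), IRF2 (0.48), IFNGR2, the second chain of the interferon-gamma receptor (0.46), and RELA (0.29), all as log2 fold changes. NFKB2 (-0.85), the kinase JAK1 (-0.83) and STAT3 (-0.52) were lower. RELA lost its call without GFP DMSO replicate 2 (0.25, edgeR adjusted p = 0.11) and with library totals (0.17, edgeR adjusted p = 0.165). SOCS1, IRF2, IFNGR2, NFKB2, JAK1 and STAT3 kept theirs with each library left out in turn.

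**Figure D5:**
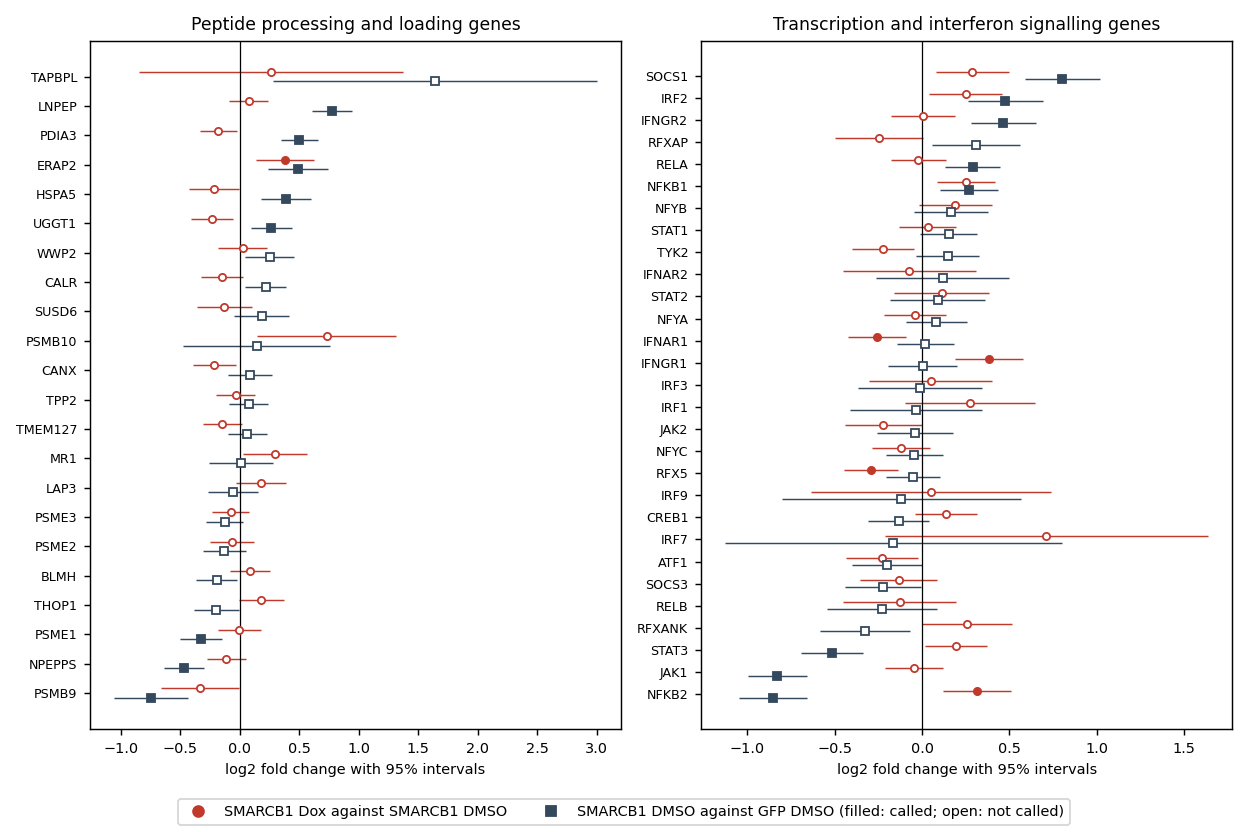
Log2 fold changes from edgeR with 95% intervals for the 22 tested peptide processing and loading genes and the 29 tested transcription and interferon signalling genes, with circles for SMARCB1 induction, squares for the untreated lines and filled symbols for called genes. Induction gives 1 and 4 filled circles, and the lines differ in 8 and 8 filled squares.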

How the data were processed

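RNA libraries of G401 cells were compared in 4 groups of 2, set by the sample titles. The authors deposited unnormalised read counts for each gene, from STAR alignment and HTSeq counting (intersection-strict mode, exons, GENCODE v42) on hg38, per the labels and the study's methods. Versions and the strand option are not given in the sources used here. The labels name a ribosome profiling kit and the methods a directional RNA kit, so the library chemistry is uncertain. The 5 entries that name no gene held 27% to 29.3% of reads and were left out.

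Counts were fitted with edgeR 4.0.16 (R 4.3.3), using filterByExpr defaults, TMM scaling, 1 mean per group and the quasi-likelihood test over all 8 libraries. Benjamini-Hochberg adjustment ran over all 15931 genes, and genes under 0.05 were called. CPM are TMM-scaled, and 95% intervals are normal intervals from the standard errors. Identifiers were matched to GENCODE v44 (62625 of 69215), which also gave canonical lengths. Promoters are from RefSeq, GRCh38.p14. Alternatives were DESeq2 1.42.0, its size factors, library totals, no filter, a replicate block, a log2 fold change above 1 and leaving out each library. The scripts were tested on simulated data. The authors' test was DESeq2, run here as an alternative.

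The members and lists were chosen with earlier results of these data known. Named genes were all members, up to 4 called genes in each direction from each list by size of change, SMARCB1, 3 immune markers, and the 5 genes nearest to HLA-B and to B2M in profile, of which 1 is not reported here.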

Additional observations from a re-analysis of the deposited data

Results flagged for a closer look

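The Dox effect on IRF7 differed between the SMARCB1 and GFP lines by 2.67 on the log2 scale, by the edgeR test of the difference itself (adjusted p = 0.0466). That test called 4.71% of all genes. With 1 library left out at a time the difference in IRF7 ran from 2.11 to 3.80, with edgeR adjusted p from 0.0498 to 0.243.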

How the results depend on the processing

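Of the results for single members, 429 kept their direction and side of the threshold under the alternatives, 34 turned in direction, 3 passed the threshold and 2 lost it. Of the counts of called genes, 128 stayed within 1.5 times and 32 moved. With the replicate number as a block, 2 members were called with SMARCB1 induction instead of 1, as were 2 peptide processing genes and 7 regulators, and 2 regulators for the difference of the effects; over all genes 3149, 0, 1282 and 5977 were called in the 4 comparisons. Same-numbered libraries correlated at 0.031 to 0.148 in their deviations from the group means, all positive and highest between the groups of the SMARCB1 line. The main fit did not pair the samples by number, and whether same-numbered libraries shared a batch was not tested. A log2 fold change above 1 left 0 members between the untreated lines. DESeq2 called 0 peptide processing genes with induction and 0 regulators for the difference. No filter left 2 regulators with induction, and library totals gave 2 for the difference. Library totals moved the median of all genes from -0.004 to 0.088 with induction and from 0.015 to -0.10 between the lines, and turned the direction of B2M (0.00987) and TAP2 (0.077) with induction, TAP1 with GFP Dox (0.0103), and HLA-C (0.0368) and HLA-E (0.0058) for the difference, none of them called. With 1 library left out, peptide processing calls ranged from 0 to 4 with induction, 0 to 1 for the difference and 4 to 10 between the lines, and regulator calls from 1 to 2 with induction and 0 to 2 for the difference. With induction the log2 fold changes then ranged from -0.11 to 0.26 (HLA-C), -0.26 to 0.0985 (B2M), -0.22 to 0.16 (TAP2) and -0.0748 to 0.19 (ERAP1). With GFP Dox they ranged from -0.18 to 0.37 (HLA-B), -0.098 to 0.11 (B2M), -0.0224 to 0.00735 (TAP1), -0.29 to 0.67 (NLRC5) and -0.0316 to 0.12 (ERAP1). For the difference they ranged from -0.13 to 0.71 (HLA-B), -0.24 to 0.13 (HLA-C), -0.16 to 0.0124 (HLA-E), -0.27 to 0.0887 (B2M), -0.0364 to 0.34 (TAP2) and -0.12 to 0.14 (ERAP1), and between the lines from -0.69 to 0.0691 (HLA-B) and -0.20 to 0.0675 (TAP2). Where a group was left with 1 library, that library was assumed to vary like the other groups. Beyond fewer samples or the changed scaling, the cause was not tested.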

Other observations

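Profiles over the 8 libraries were compared by Euclidean distance between centred log2 CPM values, among genes averaging 5 CPM or more. The 5 nearest to HLA-B, of 9818, were SLC16A3 (distance 0.45), GPC4 (0.473), MFGE8 (0.496), NANS (0.541) and SEL1L3 (0.555), at low HLA-B counts. The 4 nearest to B2M, of 9817, were CALU (0.125), TGOLN2 (0.129), SNHG10 (0.141) and ECM1 (0.142). All points share the same libraries.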
